A study of Mus musculus with 51 samples.

Results

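The comparison of rTg4510 mice with double negative (DN) mice in the pyramidal layer of CA1 rested on 12 microarrays, 6 of each genotype, out of 51 arrays of the series. The arrays were chosen by their labels alone, which give the genotype and the subfield, and each array came from a different mouse. All mice were labelled female and 4.5 months of age, and all came from a cross of a line in which the promoter of CaMKIIα drives the tetracycline-controlled transactivator (tTA) with an FVB/N line that carries a mutant human tau gene under tTA control. The rTg4510 mice carried both transgenes, so that mutant tau was made in the forebrain neurons in which that promoter is active. The DN mice carried neither transgene, so that the comparison holds the effects of tTA, of tau and of both insertion sites together. The 5 arrays of mice with the tTA transgene alone were in the same fit, and their levels are given for Car4, Sox9, Prnp and some other genes and lists. Mice are numbered here within a genotype in the order of deposition.

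The pyramidal layer of CA1 holds the cell bodies of the excitatory neurons that carry the main output of the hippocampus. It also contains the processes of astrocytes, scattered microglia and interneurons, small vessels, and, at its edge, the myelinated fibres of the alveus. Tau is a protein that binds microtubules in axons. When it carries this mutation and is overproduced, it detaches, becomes phosphorylated and aggregates into tangles, and reactive astrocytes and microglia gather around the affected neurons. In a layer cut out by laser, fewer cells of a type and less RNA per cell cannot be told apart.

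Signals were deposited on the log2 scale, so that a difference of 1 is a doubling, and 22626 probe sets were tested together. The median signal of a CA1 array lay between 2.92 and 3.12. As a measure of RNA quality, the 3′ minus 5′ signal of Gapdh had medians of 2.48 in DN and 2.34 in rTg4510 arrays and was highest in DN mouse 4. Its mean difference between the genotypes was −0.18 (p = 0.303 by an exact permutation of the arrays, two-sided, and 0.591 when adjusted over 3 measures; the smallest possible p was 0.00216). Markers of CA1 pyramidal, CA3 pyramidal and dentate granule cells were scored as mean signals centred on the arrays of all subfields, not as signal levels. The CA1 score was the highest of these in 5 of 6 DN and 4 of 6 rTg4510 arrays. Some of these arrays passed narrowly. The CA1 score was 0.001 in DN mouse 1, close to the mean of −0.02 in arrays of the dentate gyrus. In rTg4510 mouse 3 it was 0.133, against a CA3 score of 0.085. The array labelled DN mouse 4 had the Prnp signal of rTg4510 mice, against its label, and the array labelled DN mouse 5 had an Xist signal of 2.49, against 8.47 to 9.38 in the other DN arrays, although its label says female. The main results are therefore given with all arrays and without DN mouse 4, and the counts of calls also without both mice. The Y-linked genes Eif2s3y, Uty and Kdm5d were at most 2.43 in DN mice 1, 2, 3, 5 and 6, below the median of an array. The low Xist signal of DN mouse 5 came without a Y-linked signal. With no array labelled male, it is not known whether these probe sets would detect Y-linked RNA here, so that this cannot decide the sex of that mouse.

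With all arrays, 1 of 22626 probe sets (0.00442%) was higher in rTg4510 than in DN mice at a Benjamini-Hochberg adjusted p under 0.05 from limma, and 0 were lower (0%). It belonged to Car4. Without DN mouse 4, 4 probe sets (0.0177%) were higher, 1 of Car4, 1 of Sox9 and 2 of Prnp, and 0 were lower (0%). The 2 of Prnp are the signals for which that array was left out. Without DN mice 4 and 5, 2 were higher, those of Car4 and Sox9. At an unadjusted p under 0.05, 620 of 22626 probe sets were higher and 600 lower with all arrays, and 512 were higher and 591 lower without DN mouse 4. With 1 probe set per gene the shares were 3.06% higher and 2.55% lower, and 2.63% and 2.56% without DN mouse 4. Chance alone gives a share of about 0.05 over both directions, so that these counts are no result by themselves. Fisher's LSD, which the methods name, was run on log2 and on linear signals with Benjamini-Hochberg adjustment, since the methods speak of anti-log values. On log2 signals it called 0 higher and 0 lower with all arrays, and 3 higher and 0 lower without DN mouse 4. On linear signals it called 1 higher, Sox9, and 1 lower, Rdh12, with all arrays, and 3 higher, Sox9 and both probe sets of Prnp, and 0 lower without DN mouse 4. Every rTg4510 array lay above every DN array at 32 probe sets (0.141%) and below every DN array at 28 (0.124%), and without DN mouse 4 these numbers were 61 (0.27%) and 57 (0.252%).

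Car4, the carbonic anhydrase IV that sits on the outer face of the cell membrane and buffers extracellular pH, rose in CA1 of rTg4510 mice. At the dimmer of its 2 probe sets the log2 signals in DN mice 1 to 6 were 4.96, 5.82, 5.02, 7.16, 5.01 and 5.70. In rTg4510 mice 1 to 6 they were 8.71, 8.45, 8.17, 7.37, 8.65 and 8.62. Every rTg4510 array lay above every DN array, and the groups came closest between DN mouse 4 and rTg4510 mouse 4. The means were 8.33 ± 0.51 (SD, n = 6) in rTg4510 and 5.61 ± 0.85 (SD, n = 6) in DN mice, and they differed by 2.72 (standard error 0.37, adjusted p = 0.0303), or 6.58-fold. Leaving out DN mouse 4, the difference was 3.03 (standard error 0.30, adjusted p = 0.000823), or 8.15-fold. With all arrays the call was lost with Fisher's LSD on log2 signals (adjusted p = 0.0814), with the rTg4510 and DN arrays alone (adjusted p = 0.168) and without any one of DN mice 1, 2, 3, 5 or 6, rTg4510 mice 1, 2, 3, 5 or 6, or tTA mice 1, 2 or 3, with adjusted p between 0.0573 and 0.138 and a difference between 2.59 and 2.76. Once DN mouse 4 was left out, Car4 passed in 26 of 26 alternatives on log2 signals, with an adjusted p of at most 0.00598, but not with Fisher's LSD on linear signals (adjusted p = 0.113).

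The other probe set of Car4 was brighter and more variable in DN mice. Its signals in DN mice 1 to 6 were 9.12, 7.87, 6.48, 9.03, 6.76 and 6.86, and those in rTg4510 mice lay between 9.28 and 9.64. Here too all 6 rTg4510 arrays lay above all DN arrays, but those of DN mice 1 and 4 came close to them. The difference was 1.80 (standard error 0.46, adjusted p = 0.685) with all arrays and 2.07 (standard error 0.44, adjusted p = 0.495) without DN mouse 4, and it passed in neither. It passed without DN mice 1 and 4 (adjusted p = 0.0254) and with array weights. Both probe sets of Car4 were also high in mice that carry tTA alone, between 6.73 and 8.41 at the dimmer and between 7.53 and 9.69 at the brighter one. The signals of tTA and rTg4510 mice therefore overlapped at both probe sets, and at the dimmer one 4 of 6 rTg4510 arrays lay above every tTA array.

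Sox9, a transcription factor of astrocytes and neural stem cells, had higher signals in rTg4510 than in DN and in tTA mice. At its brighter probe set the signals in DN mice 1 to 6 were 3.26, 4.04, 3.84, 4.45, 3.70 and 3.64. In rTg4510 mice 1 to 6 they were 4.57, 4.88, 4.84, 4.86, 4.93 and 5.00. Every rTg4510 array lay above every DN array and above the tTA arrays, which ranged from 3.61 to 4.07, and the highest DN array was again that of mouse 4. The difference was 1.03 (standard error 0.17, adjusted p = 0.129) with all arrays, where it did not pass. Without DN mouse 4 it was 1.15 (standard error 0.14, adjusted p = 0.00729), a 2.22-fold rise, and it was lost with an intensity trend (adjusted p = 0.422), with the rTg4510 and DN arrays alone (adjusted p = 0.0526) and in a fit of all subfields (adjusted p = 0.30). The other probe set of Sox9 lay below the median of an array in both groups (1.96 in DN mice without mouse 4 and 2.15 in rTg4510 mice).

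Prnp encodes the prion protein, a membrane-anchored protein that is abundant in neurons. At the dimmer probe set its signals in DN mice 1 to 6 were 6.57, 8.40, 8.76, 10.44, 8.13 and 8.48, and in rTg4510 mice 10.11, 10.55, 10.11, 10.36, 10.16 and 9.96. DN mouse 4 lay inside the range of the rTg4510 mice, and the other 5 DN arrays lay more than 1 unit below it. At the brighter probe set DN mouse 4 was at 10.88, above all rTg4510 arrays (10.52 to 10.77), and the other DN arrays lay between 9.49 and 10.05. The tTA arrays lay between 7.26 and 8.46 at the former and between 9.24 and 9.61 at the latter. With all arrays the differences were 1.75 (standard error 0.43, adjusted p = 0.685) and 0.76 (standard error 0.19, adjusted p = 0.685), and neither passed. Since DN mouse 4 was left out because of its Prnp signal, the differences without it, 2.14 and 0.95, are given as a description and are not independent evidence of a rise. Whether the 2 probe sets of Prnp also read RNA of a transgene was not analysed here.

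**Figure D1:**
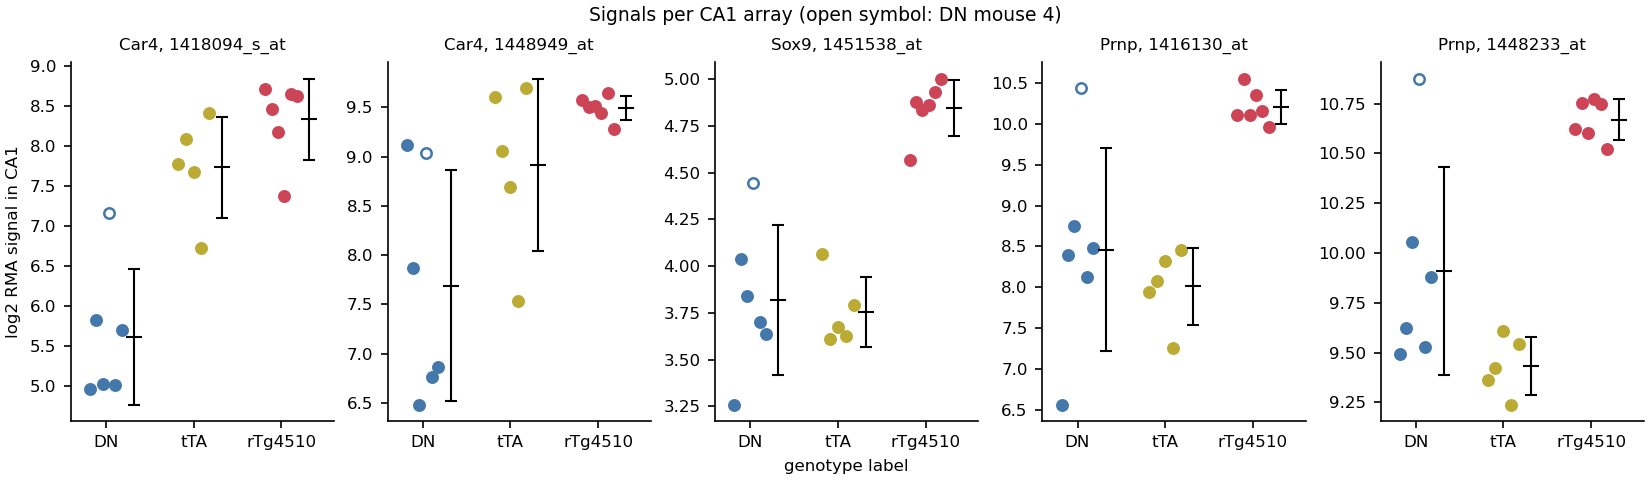
Log2 RMA signal (vertical axes, each with its own scale that does not start at 0) of 2 probe sets of Car4, 1 of Sox9 and 2 of Prnp in the CA1 arrays, by genotype label (horizontal axis). Each point is 1 array, horizontal bars with whiskers show mean ± SD, and the open symbol is DN mouse 4. The dimmer Car4 probe set is high in tTA (6.73 to 8.41) and rTg4510 mice (7.37 to 8.71), whereas Sox9 and Prnp are high in rTg4510 mice and at Prnp the open symbol lies among or above them.

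At some other genes too DN mouse 4 lay above the other DN arrays, at or above the level of rTg4510 mice. Pmaip1, which encodes the pro-apoptotic protein Noxa, was at 5.41 in DN mouse 4 and between 2.07 and 3.28 in the other DN arrays, against 4.77 to 5.76 in rTg4510 mice. The tTA arrays lay between 2.66 and 6.12 at Pmaip1, so that the level of DN mouse 4 was not particular to rTg4510 mice. Jun, a subunit of the transcription factor AP-1, was at 8.14 in DN mouse 4 (its brighter probe set), between 5.29 and 6.34 in the other DN arrays and between 6.65 and 7.91 in rTg4510 mice. The tTA arrays lay between 4.58 and 7.11 at Jun, and DN mouse 4 was above all of these arrays. Neither gene passed: without DN mouse 4 the difference of Pmaip1 was 2.52 (standard error 0.47, adjusted p = 0.223) and that of Jun 1.56 (standard error 0.38, adjusted p = 0.58). Other genes did not follow this pattern. The oligodendrocyte enzyme Ugt8a was lower in DN mouse 4, at 1.46, than in any other DN array (2.01 to 4.17).

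None of the probe sets with the next smallest p values on the higher side passed. Ptgds, a prostaglandin D synthase of oligodendrocytes and meninges, lay between 9.06 and 11.14 in rTg4510 and between 6.13 and 9.20 in DN mice, with rTg4510 mouse 4 highest. The difference was 2.30 (standard error 0.48, adjusted p = 0.487), and a second probe set of Ptgds differed by 2.34. Tspan2, a tetraspanin of oligodendrocytes, differed by 2.16 (standard error 0.46, adjusted p = 0.487), and Cryab, a small heat shock protein of glia, by 1.62 (standard error 0.36, adjusted p = 0.593). Tmem175, a potassium channel of lysosomes, lay between 3.22 and 3.77 in rTg4510 and between 2.28 and 2.94 in DN mice, a separation without overlap close to the median signal of an array (difference 0.89, standard error 0.17, adjusted p = 0.397). Cyp4v3, a fatty acid hydroxylase, differed by 1.99, Asl, the argininosuccinate lyase of the urea cycle, by 1.51 and Pdrg1 by 0.89 (adjusted p = 0.487, 0.593 and 0.726).

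On the lower side none of the probe sets with the smallest p values passed. Npr2, the receptor of C-type natriuretic peptide, lay between 2.89 and 3.51 in rTg4510 and between 3.72 and 5.18 in DN mice. All 6 rTg4510 arrays were below all DN arrays, but the tTA arrays, between 2.98 and 3.93, overlapped with rTg4510. The difference was −1.10 (standard error 0.22, adjusted p = 0.397) with all arrays and −1.22 (standard error 0.21, adjusted p = 0.125) without DN mouse 4. Jph1, a junctophilin that ties the endoplasmic reticulum to the plasma membrane, lay between 2.72 and 4.21 in rTg4510 mice and between 4.50 and 5.77 in DN mice, DN mouse 4 excepted, which was at 3.28. Leaving it out, the difference was −1.53 (standard error 0.29, adjusted p = 0.261), and its tTA arrays, between 4.28 and 4.89, lay above all rTg4510 arrays. Grin2b, the GluN2B subunit of NMDA receptors, lay between 4.89 and 5.75 in rTg4510 and between 5.72 and 7.31 in DN mice (difference −1.32, standard error 0.34, adjusted p = 0.685). A second probe set of Grin2b was below the median of an array and differed by 0.20. Actr3, a subunit of the Arp2/3 complex that nucleates branched actin, differed by −0.69 (standard error 0.16, adjusted p = 0.529) without DN mouse 4, and its other probe sets by −0.62 and −0.70. Rdh12, a retinol dehydrogenase, and Ndst3, an enzyme of heparan sulphate synthesis, differed by −0.58 and −0.69, but both had means of at most 2.89 and thus lay at or below the median of an array.

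**Figure D2:**
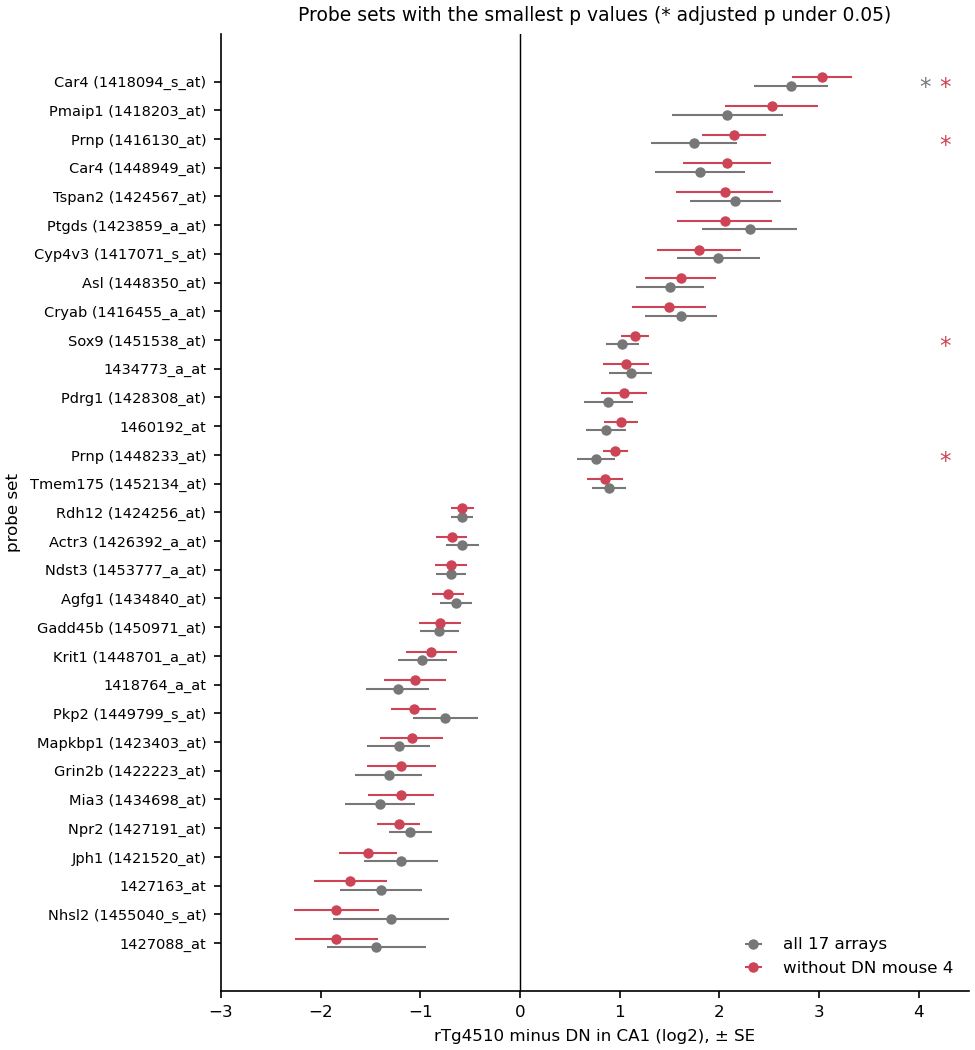
Difference between rTg4510 and DN mice in CA1 (horizontal axis, log2, ± standard error) for probe sets among the 10 smallest p values in each direction of either fit (vertical axis), in the fit of all 17 arrays (grey) and without DN mouse 4 (red). Stars mark an adjusted p under 0.05 in the fit of the same colour: 1 probe set, of Car4, with all arrays and 4 without DN mouse 4. The 2 fits share all arrays but 1.

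Genes were then described by lists, with 1 probe set per gene, the brightest. The background for every list is that of 11956 genes, of which 366 (3.06%) were higher and 305 (2.55%) lower at an unadjusted p under 0.05 with all arrays. The repeat without DN mouse 4 gave 314 (2.63%) and 306 (2.56%). The median difference over all genes was −0.02 with all arrays and 0.00 without DN mouse 4, and 47.3% and 50.1% of genes lay higher in rTg4510 mice. The counts of the lists below are to be read against these shares.

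Genes of oligodendrocytes, the cells that wrap axons in myelin, lay higher in rTg4510 than in DN mice as a list. All 20 measured genes of 22 listed had a positive difference, with a median of 1.16 with all arrays and 0.95 without DN mouse 4. At an unadjusted p under 0.05, 14 of 20 were higher with all arrays and 12 without DN mouse 4, 0 were lower, and 0 of 20 passed after adjustment with limma in either fit. Members with small p values included Ugt8a, which makes the galactolipids of myelin (difference 2.50, standard error 0.59, adjusted p = 0.672), the iron carrier Trf (1.61, standard error 0.52), the myelin enzyme Cnp (1.51, standard error 0.43) and Mobp (1.88, standard error 0.62). All rTg4510 arrays (4.39 to 6.68) lay above all DN arrays (1.46 to 4.17) at Ugt8a. Mbp, the myelin basic protein, had a mean signal of 9.76 and differed by 0.97 (standard error 0.34). The mean centred signal of the list lay between 0.05 and 1.66 in rTg4510 and between −0.92 and 0.18 in DN arrays, and rTg4510 mouse 4 was the highest of all arrays. Without that mouse the median difference was 0.90.

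Genes of astrocytes, which clear glutamate and potassium around neurons, lay higher for 24 of 27 measured genes of 28 listed with all arrays and for 27 of 27 without DN mouse 4, with medians of 0.53 and 0.55. At an unadjusted p under 0.05, 10 and 12 genes were higher and 0 lower. Sox9, described above, was the 1 member that passed after adjustment, and it did so without DN mouse 4. Gfap, the intermediate filament of reactive astrocytes, had signals of 4.53, 5.01, 3.93, 5.88, 3.92 and 4.56 in DN mice 1 to 6 at its brightest probe set. In rTg4510 mice 1 to 6 they were 6.28, 5.70, 6.28, 8.65, 8.003 and 5.07. The rTg4510 arrays were spread over more than 3 units, with mice 4 and 5 far above the others, and 2 of them lay below the DN mouse 4 array. The difference was 2.02 (standard error 0.53, adjusted p = 0.685) with all arrays and 2.27 (standard error 0.53, adjusted p = 0.546) without DN mouse 4. The calcium binding protein S100b differed by 0.93 (standard error 0.25), the water channel Aqp4 by 0.74 (standard error 0.41) and the glutamate transporter Slc1a2 by 0.06 (standard error 0.29). None of these 3 passed.

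Genes of microglia, the resident phagocytes of the brain, lay higher for 31 of 36 measured genes of 38 listed (median 0.42) and for 33 of 36 without DN mouse 4 (median 0.50). In either fit 7 were higher at an unadjusted p under 0.05, 0 were lower and 0 passed with limma. Only 11 of the 36 had a mean signal above the median of an array, and the defining markers Itgam and Trem2 were at 1.78 and 2.13. Itgam differed by −0.03, and Trem2 by −0.04 and by −0.13 at its other probe set. Itgax and Cd14, also dim, differed by 0.06 and 0.04. Ctss, the lysosomal protease cathepsin S, separated the groups, at 6.61 to 8.42 in rTg4510 mice and 5.16 to 6.49 in DN mice (difference 1.42, standard error 0.39, adjusted p = 0.726). Ctsd, cathepsin D, differed by 0.85 (standard error 0.22), the purinergic receptor P2ry12 by 0.96 (standard error 0.31), the adaptor Tyrobp by 1.05 (standard error 0.42) and the growth factor receptor Csf1r by 1.27 (standard error 0.68). The median of the list was 0.18 without rTg4510 mouse 4.

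Complement proteins tag cells and synapses for removal. Of 17 measured complement genes of 21 listed, 13 lay higher (median 0.22) with all arrays and 14 (median 0.18) without DN mouse 4, with 4 and 3 higher and 1 lower at an unadjusted p under 0.05. The median was 0.40 without rTg4510 mouse 1, and 0.36 without DN mice 1 and 4. Only 2 of the 17 had a mean signal above the median of an array. C4b was between 1.35 and 1.84 in all DN arrays and at 3.58, 2.35, 2.18, 4.92, 4.34 and 1.76 in rTg4510 mice 1 to 6. The signal was thus clearly above the DN range in mice 1, 4 and 5 and within that range in mouse 6 (difference 1.52, standard error 0.43, adjusted p = 0.726). C1qc and C1qa, chains of the initiator C1q, differed by 1.39 (standard error 0.57) and 0.86 (standard error 0.40), and neither passed. Genes of vessels lay higher for 18 of 22 measured genes of 25 listed (median 0.47) and 20 of 22 without DN mouse 4 (median 0.40), with 5 and 3 higher and 0 lower at an unadjusted p under 0.05. Ly6c1, of endothelial cells, differed by 1.56 (standard error 0.47), the tight junction protein Cldn5 by 1.05 (standard error 0.37) and the pericyte gene Rgs5 by 0.66 (standard error 0.29), and none passed. Genes of the choroid plexus, which lies outside the layer, had a median of −0.03, and its main product Ttr was at a mean of 2.26.

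**Figure D3:**
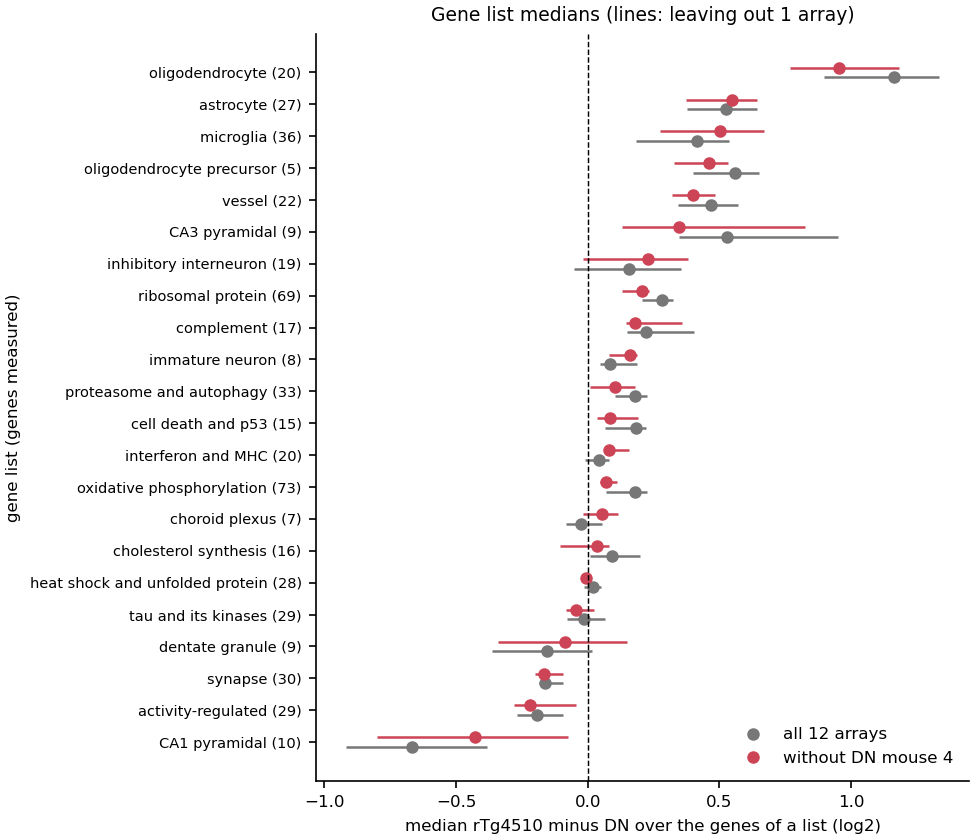
Median over the genes of each list of the difference between rTg4510 and DN mice in CA1 (horizontal axis, log2), with all 12 arrays (grey) and without DN mouse 4 (red), and the number of genes measured in brackets (vertical axis). Lines span the medians when 1 further array of these genotypes was left out at a time, and the dashed line is the median of all genes without DN mouse 4 (0.00). Glial and vascular lists lie to the right, oligodendrocytes the farthest at 1.16 and 0.95, and the CA1 pyramidal list to the left at −0.67 and −0.43.

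Markers of pyramidal cells in the same arrays were uneven. Of 10 measured CA1 pyramidal genes of 15 listed, 9 were lower in rTg4510 mice (median −0.67), and 8 without DN mouse 4 (median −0.43, between −0.80 and −0.07 when 1 further array was left out). Their mean centred signal was split within DN mice, at 1.75, 1.25 and 1.61 in mice 3, 4 and 6 and at −0.98, −0.88 and −0.67 in mice 1, 2 and 5. In rTg4510 mice it lay between −1.40 and 0.41. The oligodendrocyte signal was lowest in the same DN mice 3, 4 and 6 (−0.71, −0.92 and −0.79). Lefty1, a ligand of the TGF-β family that marks CA1 pyramidal cells, differed by −1.89 (standard error 0.59, adjusted p = 0.785), Htr1a, a serotonin receptor, by −1.59 (standard error 0.75) and Wfs1, a protein of the endoplasmic reticulum, by −0.23 (standard error 1.36), which turned to 0.23 without DN mouse 4. None of these passed. Markers of CA3 pyramidal cells lay higher for 7 of 9 measured genes of 12 listed (median 0.53 with all arrays, 0.35 without DN mouse 4, 0.95 without DN mouse 2, and 0.13 without DN mouse 4 and rTg4510 mouse 6). In the tTA arrays the median centred signal was −0.09 for oligodendrocyte, 0.02 for astrocyte, 0.002 for microglial and 0.02 for vessel genes. It was 0.10 for CA3 pyramidal genes, and each of these values lay between the medians of DN and rTg4510 arrays. That of CA1 pyramidal genes, 0.45, lay above both. The part of these unequal pyramidal markers in the differences of glial and vascular genes was not tested.

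**Figure D4:**
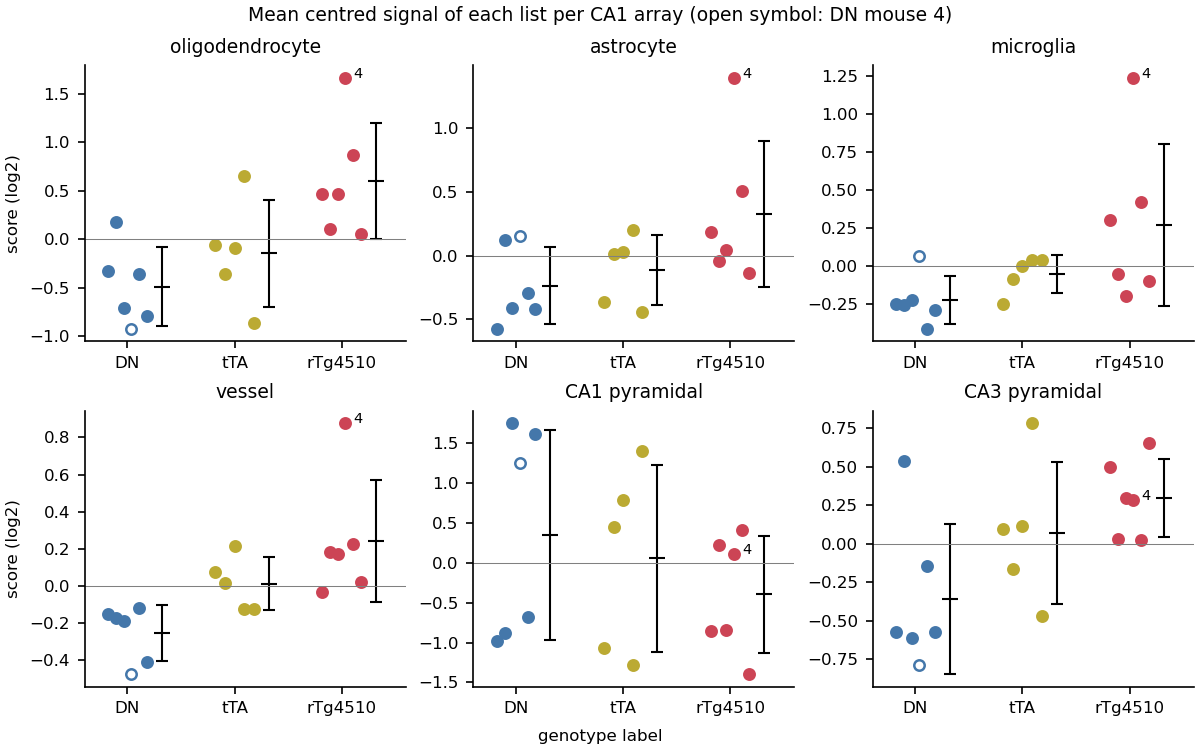
Mean centred log2 signal of the genes of 6 lists (vertical axes, each with its own scale, 0 is the mean of the 17 CA1 arrays) in each CA1 array, by genotype label (horizontal axis). Each point is 1 array, horizontal bars with whiskers show mean ± SD, the open symbol is DN mouse 4 and the numeral 4 marks rTg4510 mouse 4. That mouse is highest for oligodendrocyte (1.66), astrocyte (1.40), microglia (1.24) and vessel (0.88) genes, and the DN arrays fall apart in CA1 pyramidal genes.

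Genes of synapses lay lower for 21 of 30 measured genes of 44 listed with all arrays (median −0.16) and for 23 of 30 without DN mouse 4 (median −0.16). The median was −0.09 without DN mouse 5. At an unadjusted p under 0.05, 0 were higher with limma and 5 and 4 lower, and 0 passed. Besides Grin2b, these included Gria1, the GluA1 subunit of AMPA receptors (difference −0.57, standard error 0.18), the kinase subunit Camk2b (−0.62, standard error 0.24) and the scaffold Homer1 (−1.10, standard error 0.39). At Camk2b every rTg4510 array lay below every DN array but that of mouse 4. The mean centred signal of the list lay between −0.18 and 0.13 in rTg4510 and between 0.08 and 0.27 in DN arrays. In tTA arrays it lay between −0.54, in tTA mouse 4, and 0.15. The medians were 0.17 in DN, −0.04 in tTA and −0.09 in rTg4510 arrays, so that tTA mice shared much of the lower signal. Homer1 had a mean of 5.23 in tTA mice, below the 5.58 of rTg4510 mice. The tTA means of Gria1 (9.65) and Grin2b (5.59) lay between those of rTg4510 (9.42 and 5.37) and DN mice (9.99 and 6.69).

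Genes that neuronal activity regulates went both ways. Of 29 measured genes of 32 listed, 10 lay higher (median −0.19) with all arrays and 11 (median −0.22) without DN mouse 4. The median was −0.09 without DN mouse 3 and −0.05 without DN mice 3 and 4. At an unadjusted p under 0.05, 2 and 3 were higher and 5 and 4 lower. Plk2, a kinase of active synapses, differed by −0.83 (standard error 0.29), Dusp6, a phosphatase that ends ERK signalling, by −0.97 (standard error 0.37) and Gadd45b by −0.81 (standard error 0.20). Gadd45b was dim, at a mean of 2.96 in DN mice without mouse 4, near the median of an array. Arc and Egr1, the classical immediate early genes, differed by −0.61 (standard error 0.34) and −0.64 (standard error 0.34), Fos by 1.15 (standard error 0.65) and Jun by 1.14 (standard error 0.48). None of these passed. The mean signal of Arc was 5.78 in DN, 5.17 in rTg4510 and 4.56 in tTA mice, so that it was lowest without the tau transgene. The median centred signal of the list was 0.11 in DN, −0.01 in rTg4510 and −0.12 in tTA arrays. Of 19 measured interneuron genes of 20 listed, 11 lay higher (median 0.16, −0.05 without rTg4510 mouse 4 and 0.35 without rTg4510 mouse 6). Pvalb, the calcium buffer parvalbumin, differed by 0.88 (standard error 0.24, adjusted p = 0.724) and the GABA-synthesizing enzymes Gad1 and Gad2 by 0.06 (standard error 0.34) and 0.16 (standard error 0.41). At Pvalb the tTA arrays, between 8.13 and 9.10, overlapped with the rTg4510 arrays, between 8.57 and 9.81. Other members went the other way, among them Tac1 by −0.68 and Lhx6 by −0.46.

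Endogenous tau and the enzymes that phosphorylate it had a median difference of −0.01 over 29 measured genes of 37 listed, with 0 higher and 3 lower at an unadjusted p under 0.05. The 3 probe sets of mouse Mapt differed by −0.01, −0.05 and 0.54 (adjusted p between 0.947 and 1). Whether these probe sets read the human transcript was not analysed here. Cdk5r1, the activator p35 of the tau kinase Cdk5, differed by −0.45 (standard error 0.14, adjusted p = 0.783), and the tau kinase Gsk3b by −0.27 (standard error 0.33). Chaperones and genes of the unfolded protein response had a median of 0.02 over 28 measured of 31 listed, with 2 higher, Cryab and Hspb1, and 1 lower, Dnajb5, at an unadjusted p under 0.05. Genes of the proteasome and of autophagy had a median of 0.18 (33 measured of 39 listed, 1 higher and 0 lower) and of 0.10 without DN mouse 4 (0 higher and 0 lower, and a median of 0.01 without DN mouse 1 as well). Interferon response and MHC genes had a median of 0.04 (20 of 23 listed, 2 higher and 0 lower), genes of cell death and p53 a median of 0.18 (15 of 18 listed, 1 higher and 0 lower), and genes of cholesterol synthesis a median of 0.09 (16 of 20 listed, 0 higher and 1 lower). The cell death median was 0.09 without DN mouse 4 and 0.07 without rTg4510 mouse 4, and the cholesterol median was 0.03 without DN mouse 4 and 0.01 without rTg4510 mouse 6. The interferon and MHC median was 0.08 without DN mouse 4.

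Housekeeping lists shifted by little, but in 1 direction. Of 69 measured ribosomal protein genes of 89 listed, 66 lay higher with all arrays (median 0.28) and 60 without DN mouse 4 (median 0.21), with 10 and 2 higher and 0 lower at an unadjusted p under 0.05. Of 73 genes of oxidative phosphorylation of 92 listed, 61 lay higher with all arrays (median 0.18) and 51 without DN mouse 4 (median 0.07). Ribosomal genes were lowest in DN mouse 4, at a mean centred signal of −0.66 against −0.36 to 0.13 in the other DN arrays, and that array also had the highest 3′ to 5′ difference of Gapdh; the part of RNA quality in these medians was not tested.

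Genes at the sites into which the transgenes of this cross have inserted, and the genes whose promoters were used, were looked at one by one. Ptprn2, near the site of the tTA transgene, differed by −1.10 (standard error 0.33, adjusted p = 0.783) with all arrays and −1.16 without DN mouse 4. Fgf14, at the site of the tau transgene, differed by −0.38 (standard error 0.29, adjusted p = 0.971) at its brightest probe set and by −0.65 (standard error 0.21, adjusted p = 0.915) without DN mouse 4. Vipr2 and Ncapg2 were dim, at means of 1.57 and 2.26, and differed by −0.30 and −0.21. Camk2a, whose promoter drives tTA, differed by −0.15 (standard error 0.11, adjusted p = 0.971). Of these genes and Prnp and Mapt, 7 of 11 listed were measured.

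The same contrast in the CA3 pyramidal layer and the granular layer of the dentate gyrus (DG) of the same mice gave 0 called probe sets in either direction with all arrays. In the DG 2 further arrays went against their labels. That of DN mouse 5 had a Prnp signal of 9.93 at the dimmer probe set, against 7.46 to 8.02 in the DN mice other than mouse 4, and that of rTg4510 mouse 3 had 7.34, against 9.73 to 10.26 in the other rTg4510 mice. Xist was at 9.91 in the former and at 2.50 in the latter. In CA1 and CA3 Xist was low in DN mouse 5 (2.49 and 4.06) and high in rTg4510 mouse 3 (7.85 and 8.96). Prnp in CA1 and CA3 went with the labels, at 8.13 and 8.55 in DN mouse 5 and 10.11 and 9.69 in rTg4510 mouse 3. Whether the DG arrays of these 2 mice were exchanged was not tested. The DG values are therefore also given without DN mice 4 and 5 and rTg4510 mouse 3, an alternative added after the values were seen. Without DN mouse 4, 2 (0.00884%) were higher in CA3, both of Prnp, and 2 (0.00884%) lower, Nfkbie, an inhibitor of NF-κB, and Nacc1 (differences −1.97 and −1.37), while 0 were called in the DG. The CA3 signal of Prnp in the mouse left out was also at the level of rTg4510 mice (9.65), so that the Prnp calls in CA3 follow from leaving it out and are no independent evidence. In CA3 the dimmer Car4 probe set differed by 1.60 (standard error 0.30, adjusted p = 0.388) without DN mouse 4. The corresponding DG value was 1.92 (standard error 0.44, adjusted p = 0.966), and neither passed. Without the 3 mice Car4 rose in the DG by 2.50 (standard error 0.34, adjusted p = 0.0132). In that fit 4 probe sets (0.0177%) were higher and 12 (0.053%) lower in the DG, the higher ones including both of Prnp, by whose signal the mice were left out. For Sox9 the CA3 difference was 0.67 with a standard error of 0.25 (adjusted p = 1). Its DG difference was 1.28 with a standard error of 0.38 (adjusted p = 0.966), and 1.44 without the 3 mice, where it did not pass either. Whether a difference was larger in CA1 than in another subfield was tested on differences between arrays labelled with the same mouse. The DG arrays of DN mouse 5 and rTg4510 mouse 3 entered this test as labelled. The test called 0 probe sets of 22626 (0%) for CA1 against CA3 and 0 (0%) for CA1 against the DG with limma. It also called 0 of either with limma when the arrays of a mouse were not paired. At an unadjusted p under 0.05 there were 820 and 1175, where chance alone gives a share of about 0.05 of all probe sets. For Car4 the CA1 difference exceeded that of CA3 by 1.43 (adjusted p = 1) and that of the DG by 1.10 (adjusted p = 0.996) without DN mouse 4, and by 0.48 (adjusted p = 0.965) without the 3 mice, so that a difference between subfields was not shown. Leaving out the same 3 mice, 1 probe set passed against the DG, of the chemokine gene Cxcl12 (3.29, adjusted p = 0.0275). The median of oligodendrocyte genes without DN mouse 4 was 0.95 for CA1 against 0.31 for CA3 and 0.30 for the DG, that of astrocyte genes was 0.55, 0.53 and 0.43 in the same order, and that of microglial genes was 0.50, 0.29 and 0.21. In the DG these medians were 0.29, 0.62 and 0.39 without the 3 mice. The differences between these medians were not tested.

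**Figure D5:**
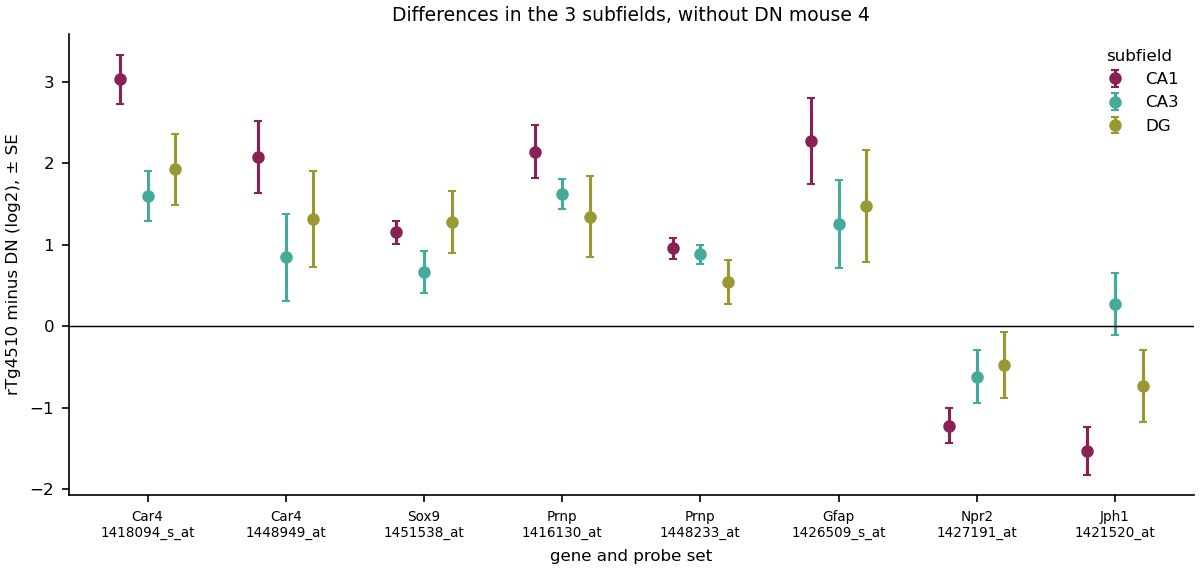
Difference between rTg4510 and DN mice (vertical axis, log2, ± standard error) at 8 probe sets (horizontal axis) for each subfield, fitted without the arrays of DN mouse 4 but with the DG arrays of DN mouse 5 and rTg4510 mouse 3, which went against their labels. Car4, Sox9, Prnp and Gfap lie above 0 in the 3 subfields, the dimmer Car4 probe set at 3.03, 1.60 and 1.92 from CA1 to the DG.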

How the data were processed

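The mice were littermate groups from 1 cross, and RNA of laser-captured layers was amplified and hybridised to 1-colour Affymetrix HT-MG-430A arrays, 1 per mouse and subfield. The authors deposited RMA signals (background-corrected, normalized and summarized per probe set). Although the methods speak of anti-log values, the numbers deposited by the authors span a log2 range and were not transformed again. The RMA version, and which arrays were normalized together, are not given in the sources used here. Of 22716 probe sets 90 controls were left out. A single symbol was given for 18003 probe sets by the platform annotation, 287 had several, and 331 of the 4336 without one were named from the study's supplementary tables. Groups came from the labels, and no pair of arrays was identical.

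The 17 CA1 arrays (6 DN, 5 tTA, 6 rTg4510) were fitted together with limma 3.58.1 in R 4.3.3, adjusting p by Benjamini-Hochberg across 22626 probe sets and a threshold of 0.05. Subfields were compared on differences within mice. The DG fit without DN mice 4 and 5 and rTg4510 mouse 3 was added after seeing the data. The fits were tested on simulated data. Named genes are those past the threshold, plus the 10 smallest p values per direction and fit where fewer than 10 passed, the transgene, sex and study genes, up to 6 members per list plus defining markers, and the 5 smallest p values between subfields. The repeat without DN mouse 4, the members and the 25 gene lists were chosen with earlier results of these data known. The number of arrays limits the precision, and p-values measure the spread between these mice. Figures used matplotlib 3.10.9. Some genes that meet the rule are not reported here.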

Additional observations from a re-analysis of the deposited data

Results flagged for a closer look

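Within the CA1 arrays of 1 genotype, 93 sets of values (signals of genes, list signals and quality measures) were searched for an array far from the rest by Dixon's test, and 7 were found. Chance alone meets this test in about 1 set in 20. The genes searched were those whose values per array are given in the text, not a random choice, so that this rate need not hold for them. DN mouse 4 stood above the other DN arrays in Pmaip1 (5.41, the next at 3.28) and in Jun (8.14, the next at 6.34). rTg4510 mouse 4 stood above the other rTg4510 arrays in Ptgds (11.14, the next at 9.83), in Xist (9.36, the next at 8.40) and in the mean centred signal of vessel genes (0.876, the next at 0.225). DN mouse 5 stood below the other DN arrays in Xist (2.49, the next at 8.47), and tTA mouse 4 below the other tTA arrays in Lefty1 (1.72, the next at 4.26).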

How the results depend on the processing

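The count of 1 probe set higher in rTg4510 mice became 0 with Fisher's LSD on log2 signals, with only the rTg4510 and DN arrays and with 1 probe set per gene, which drops the dimmer Car4 probe set, 7 with array weights (both probe sets of Car4 and of Prnp, Sox9, Pmaip1 and an unnamed one) and 2 without DN mice 4 and 5. It ranged from 0 to 4 when 1 mouse was left out, 4 without DN mouse 4. With Fisher's LSD on linear signals the 1 called was Sox9, and Car4 did not pass with or without DN mouse 4 (adjusted p = 0.136 and 0.113). The count of 0 lower became 1 with Fisher's LSD on linear signals (Rdh12) and 1 with array weights (Npr2). Without DN mouse 4, the 4 higher became 7 with array weights, 2 with only the rTg4510 and DN arrays (Car4 and Pmaip1), 2 with 1 probe set per gene (Prnp and Sox9) and 2 without DN mouse 5, and ranged from 2 to 5 when 1 more mouse was left out; 2 were called without DN mouse 2 or DN mouse 5. The 0 lower became 1 with array weights and ranged from 0 to 1, the 1 being Spry2 without rTg4510 mouse 4. For CA1 against the DG the count of 0 became 1 without DN mice 4 and 5 and rTg4510 mouse 3, whose Prnp signal went against the label in at least 1 array (for DN mouse 5 and rTg4510 mouse 3, the DG array). The causes were not tested. No difference of Car4, Prnp or Sox9 reversed its direction in 271 alternative fits, and 14 of 345 alternative list medians with all arrays changed direction, those of choroid plexus, dentate granule, interneuron, tau and kinase, heat shock and interferon genes; the CA3 pyramidal median of 0.53 became 0.95 without DN mouse 2. No paired analysis was possible because DN and rTg4510 arrays came from different mice.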
